A study of Mus musculus with 6 samples.

Results

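Chemokines are small secreted proteins that direct the migration of leukocytes, and their receptors are G protein-coupled receptors on the cells that are attracted. The genes described here were those of the CC, CXC, CX3C and XC chemokine ligands, their signalling receptors and the atypical receptors of the Ackr series. They were picked by gene symbol, with earlier results of these data known. They made up 65 of the 40428 distinct features of the count table, 43 of them ligand features and 22 receptors. RNA was sequenced from whole subcutaneous white adipose tissue of 6 mice on the C57BL/6J background, kept at room temperature on regular chow. The 3 ANKO mice carried floxed Nampt alleles and a Cre transgene driven by the adiponectin promoter, which is active in adipocytes and removes Nampt there. The 3 control mice carried the floxed alleles (flox/flox). The age of the mice is not given in the sources used here. Because whole tissue was used, adipocyte RNA is mixed with that of the depot's other cells, and fewer cells of a type cannot be told apart from less RNA per cell.

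In fat, chemokines of the CC group recruit monocytes through Ccr2 and related receptors, and adipocytes, macrophages, endothelial cells and stromal cells all make some of them. The CXCR3 ligands Cxcl9, Cxcl10 and Cxcl11 are induced by interferon gamma and attract activated T cells. Another group is homeostatic: Cxcl12, Cxcl13, Ccl19 and Ccl21 position leukocytes in bone marrow and lymphoid tissue without inflammation. Atypical receptors bind chemokines without G protein signalling and clear them.

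Library totals were 19748962 to 23860596 counts, and values are given as CPM, read counts scaled to library size after TMM (trimmed mean of M values) normalization. Nampt stood at 48.6, 50.2 and 47.0 CPM in ANKO and at 83.6, 93.0 and 87.0 CPM in control, so the deleted gene was lower in each ANKO library (log2 fold change -0.85, SE 0.0776, edgeR adjusted p = 0.00416). Of 10 adipocyte markers 4 fell (Retn, Adipoq, Plin1 and Cfd) and none rose, and the 10 summed to 5189 to 7738 CPM in ANKO and 12596 to 18996 CPM in control. The libraries also held skeletal muscle RNA, with 19 listed markers taking 0.0142% to 2.14% of the counts in ANKO and 0.182% to 1.07% in control. The 10 tested B cell markers summed to 824 to 1234 CPM in ANKO and 807 to 1149 CPM in control.

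Upstream sequences are shown for Cxcl10 and Cxcl9, interferon-induced ligands that neighbour Cxcl11, and for Ccl9, the ligand with the largest positive log2 fold change. Each runs 5′ to 3′ on the gene's own strand and holds the 250 bases before the start annotated by RefSeq (GRCm38.p6). Capitals mark matches, on either strand, to the interferon-stimulated response element, searched as GAAA, any 2 bases and GAAA, and to the NF-kB consensus. The gamma-activated site TTCNNNGAA was searched as well.
Cxcl10, chr5:92348890-92349139, minus strand: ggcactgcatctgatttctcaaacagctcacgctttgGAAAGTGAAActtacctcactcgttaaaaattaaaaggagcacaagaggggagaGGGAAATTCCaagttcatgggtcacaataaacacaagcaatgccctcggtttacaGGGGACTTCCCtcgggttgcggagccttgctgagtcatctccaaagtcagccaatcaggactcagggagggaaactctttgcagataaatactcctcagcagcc
Cxcl9, chr5:92328080-92328329, minus strand: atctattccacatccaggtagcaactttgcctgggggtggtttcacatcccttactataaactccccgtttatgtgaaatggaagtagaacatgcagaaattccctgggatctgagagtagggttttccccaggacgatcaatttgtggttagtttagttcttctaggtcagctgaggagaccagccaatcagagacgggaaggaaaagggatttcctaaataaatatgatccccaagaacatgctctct
Ccl9, chr11:83578637-83578886, minus strand: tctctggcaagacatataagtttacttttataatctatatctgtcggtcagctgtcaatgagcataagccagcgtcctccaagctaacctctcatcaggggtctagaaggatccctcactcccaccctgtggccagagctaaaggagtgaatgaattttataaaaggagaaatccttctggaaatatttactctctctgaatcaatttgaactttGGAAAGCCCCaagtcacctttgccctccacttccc
The Cxcl10 window held 1 response element and 3 NF-kB matches, 2 of which overlap each other. The Cxcl9 window held no match to any of the 3 patterns, and the Ccl9 window held 1 NF-kB match, 35 bases before the start. Over the same length, 2.98% of 32851 RefSeq promoters held a response element, 7.02% a gamma-activated site and 7.25% an NF-kB match. Of the 48 chemokine and receptor genes with enough counts to test, 36 had an upstream sequence, in 40 windows. Of these genes 3 held a response element (Ccl19, Cxcl10 and Cxcl14), 3 a gamma-activated site and 7 an NF-kB match. A gene was counted if any of its windows matched, while the shares above are of single promoters. A match of letters is a description and does not show binding.

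The comparison asks how chemokine and receptor RNA in this depot differed after Nampt was lost from adipocytes. Of 27 ligands with enough counts to test, 1 passed the threshold of adjusted p under 0.05, and it was lower: Cxcl11. No ligand passed in the other direction, and none of 21 receptors passed in either direction (edgeR). By comparison 1.59% of all 19272 genes tested were called, 0.488% higher and 1.1% lower. At an unadjusted p under 0.05 there were 1 ligand higher and 3 lower and 1 receptor higher and 2 lower, against 12.9% of all genes (6.03% higher and 6.9% lower). The 3 libraries of each genotype did not overlap for 9 of the 48, 3 with ANKO above and 6 with ANKO below control, against 19.4% of all genes (9.19% above and 10.2% below). DESeq2 also called the ligands Cxcl10 (lower, adjusted p = 0.00206) and Ccl9 (higher, adjusted p = 0.00872) and 1 receptor, while limma-voom called Cxcl11 alone. Over all 19272 genes DESeq2 called more as well, 388 higher and 498 lower, against 94 and 212 in edgeR. The median log2 fold change was 0.0046 over the 27 ligands and -0.20 over the 21 receptors, beside 0.00068 over all genes. Summed over ligands, the libraries held 643, 624 and 570 CPM in ANKO and 592, 647 and 591 CPM in control. Summed over receptors they held 272, 231 and 286 CPM in ANKO and 295, 257 and 286 CPM in control, so the totals of both classes overlapped between genotypes.

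**Figure D1:**
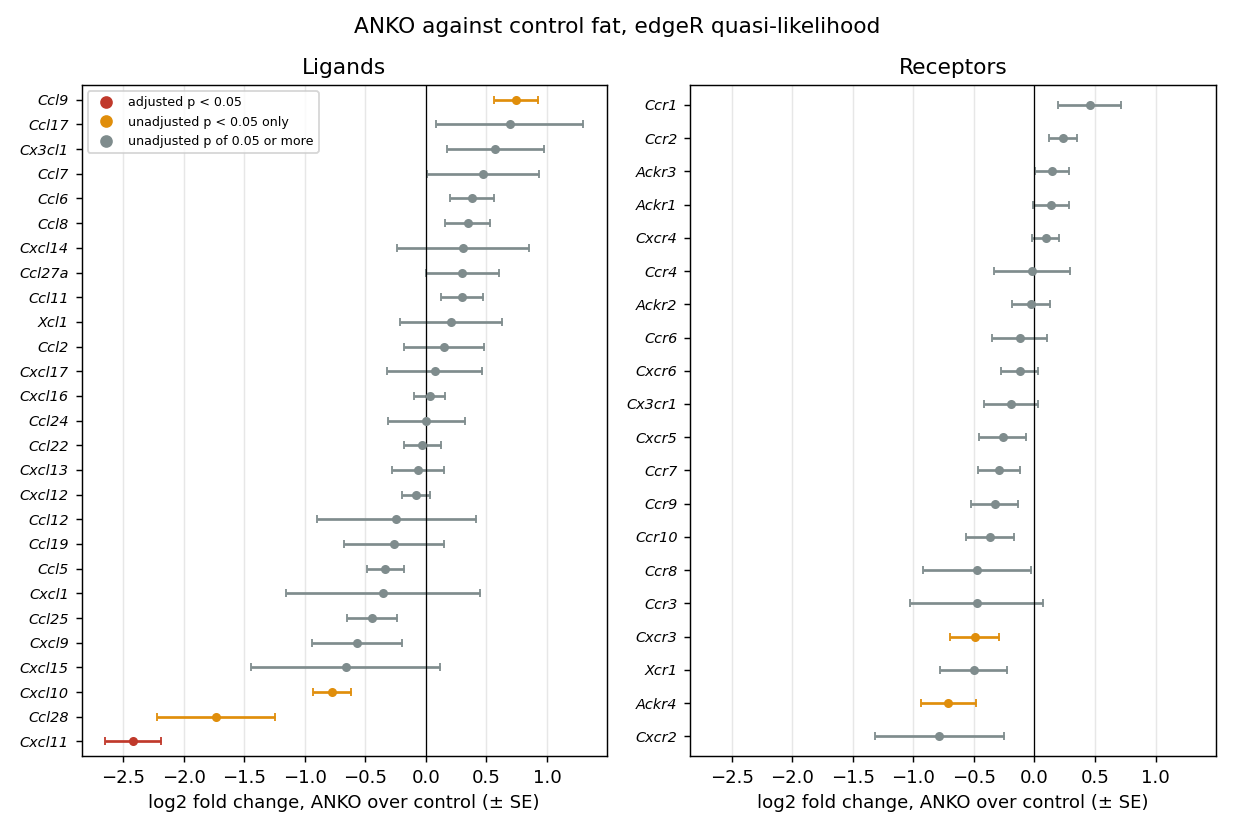
Log2 fold change of ANKO over control with its SE for the 27 tested ligands (left) and 20 of the 21 tested receptors (right), sorted by size, with 3 mice per genotype. Cxcl11, at -2.42, is the one gene past adjusted p of 0.05; Cxcl10, Ccl28, Ccl9, Ackr4 and Cxcr3 had an unadjusted p under 0.05 only.

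Cxcl11 (chromosome 5, 92359544 to 92365485, minus strand, GRCm38) encodes the CXCR3 ligand I-TAC. It had 1.68, 2.34 and 1.77 CPM in ANKO, against 8.28, 10.8 and 12.0 CPM in control. Each ANKO library lay far below each control library. The mean was 1.93 ± 0.358 CPM in ANKO and 10.3 ± 1.88 CPM in control (SD, n = 3 each), and the log2 fold change of -2.42 (SE 0.227, edgeR adjusted p = 0.00471) put ANKO at 0.187 of control. In counts, the libraries held 40, 54 and 38 reads in ANKO and 189, 214 and 232 reads in control. The GENCODE M21 annotation lists Cxcl11 as a polymorphic pseudogene, since C57BL/6 mice are known to carry a frameshifted allele. The count is therefore of RNA, and a functional CXCL11 protein is not implied by it.

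Cxcl11 lies wholly inside the span of Art3 on the opposite strand (chromosome 5, 92331827 to 92414628), and Cxcl10 does as well. Art3 is by name a member of the ADP-ribosyltransferase family, and enzyme activity was not measured here. Art3 fell to 39.8, 49.8 and 44.5 CPM in ANKO, against 93.5, 122.6 and 153.2 CPM in control (log2 fold change -1.46, SE 0.182, edgeR adjusted p = 0.0134). It did not pass without control 2 (adjusted p = 0.0646) or without ANKO 3 (adjusted p = 0.0821). Cxcl10 shares 133 exon bases with Art3, and Cxcl11 shares none. Of the 3794 exon bases of Cxcl11, 1582 overlap Gm2673, a processed pseudogene on the opposite strand, so its count and its level per kilobase are uncertain. Art3, Cxcl11 and Cxcl10 ranked the 3 ANKO libraries in 1 order, and the 3 control libraries in another that Cxcl9, Ackr4 and Acad11 shared. The strand setting of the counting is not given in the sources used here. As a measure of it, processed pseudogenes wholly inside an intron of a gene of at least 10 CPM were examined. The 425 on the strand opposite to their host had a median of 1.61 CPM per kb and the 223 on the same strand had 2.37 CPM per kb, and 92.5% and 92.4% of them had 10 or more reads. Pseudogenes can also take reads of their parent genes, so this measure does not settle the setting, and reads from unspliced Art3 RNA and from Cxcl11 or Cxcl10 cannot be told apart here. Cxcl11 reads came to 4.22%, 4.70% and 3.97% of Art3 reads in ANKO and 8.85%, 8.80% and 7.80% in control. Cxcl10 reads came to 15.8%, 15.6% and 16.2% of Art3 reads in ANKO and 11.7%, 9.70% and 8.85% in control. The first ratio was lower and the second higher in each ANKO library; an exact two-sided permutation test gave p = 0.1 for both, the smallest that 3 against 3 allows.

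Cxcl10 (chromosome 5, 92346638 to 92348889), which encodes IP-10, had 6.30, 7.75 and 7.20 CPM in ANKO and 10.9, 11.9 and 13.6 CPM in control. The groups did not overlap, and the log2 fold change of -0.77 (SE 0.155, adjusted p = 0.0579) missed the threshold in edgeR. Cxcl9 (chromosome 5, 92321347 to 92328079), the other CXCR3 ligand, had 10.8, 17.4 and 27.7 CPM in ANKO and 20.3, 27.3 and 34.9 CPM in control. ANKO 3 reached the level of control 2, so the Cxcl9 values overlapped (log2 fold change -0.56, SE 0.372, adjusted p = 0.626). Unlike Cxcl10 and Cxcl11, Cxcl9 does not lie inside the span of Art3. Their receptor Cxcr3, found on activated T cells and NK cells, had 4.03, 4.24 and 5.58 CPM in ANKO and 5.69, 7.16 and 6.65 CPM in control. Its groups did not overlap, with a log2 fold change of -0.49 (SE 0.201, adjusted p = 0.355). T cell and NK cell markers had a negative log2 fold change in 11 of 13 cases, beside 9614 of all 19272 genes tested. None of the 13 passed the test, and they summed to 352, 293 and 350 CPM in ANKO and 450, 320 and 462 CPM in control. B cell markers were negative in 9 of 10 tested cases, also none past the test. The interferon-induced transcription factors measured here did not go one way. Irf1 had 86.6, 80.0 and 95.0 CPM in ANKO and 94.1, 104.4 and 114.0 CPM in control (log2 fold change -0.26, adjusted p = 0.335). Irf7 had 66.7, 89.5 and 102.2 CPM in ANKO and 61.5, 86.1 and 58.2 CPM in control (log2 fold change 0.33, adjusted p = 0.587).

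**Figure D2:**
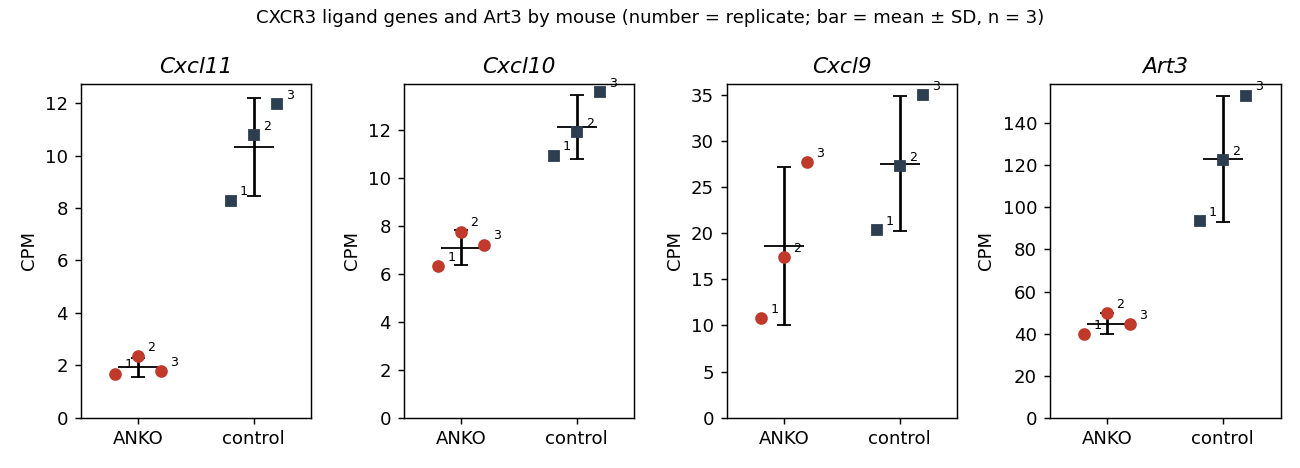
CPM of Cxcl11, Cxcl10, Cxcl9 and Art3 in each mouse, numbered by replicate, with the mean and SD of 3 mice per genotype. The ANKO values of Cxcl11, Cxcl10 and Art3 lie below all control values, and Cxcl9 overlaps between genotypes; the control libraries have the same order in all 4 genes, and the ANKO libraries in all but Cxcl9.

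The monocyte and macrophage chemokines of chromosome 11 included the ligand with the largest positive log2 fold change. Ccl9 (chromosome 11, 83572919 to 83578636), a Ccr1 ligand of mice, had 31.0, 34.7 and 38.3 CPM in ANKO and 17.9, 26.8 and 17.3 CPM in control. No ANKO library fell as low as the highest control library. On the log2 scale the difference was 0.75 (SE 0.182, adjusted p = 0.109). Without control 2, whose Ccl9 was the highest of the controls, it was 0.98 with an edgeR adjusted p of 0.0353. Its neighbour Ccl6, also a macrophage product, had 57.0, 60.9 and 53.0 CPM in ANKO and 37.7, 57.6 and 35.8 CPM in control. Control 2 again stood near the ANKO libraries. The difference was 0.38 on the log2 scale (SE 0.181, adjusted p = 0.443). Ccl8 had 8.82, 10.4 and 11.2 CPM in ANKO and 7.27, 9.83 and 6.91 CPM in control, with control 2 inside the ANKO range.

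Ccl2, the classical monocyte chemoattractant and main ligand of Ccr2, had 1.43, 1.43 and 2.56 CPM in ANKO and 1.75, 1.51 and 1.60 CPM in control. Both genotypes held 30 to 55 Ccl2 reads per library, and the values overlapped. Its relatives were at similar levels and overlapped too: Ccl7 stood at 0.924 to 2.21 CPM in ANKO and 0.706 to 1.75 CPM in control. Ccl12, a further Ccr2 ligand of mice, stood at 0.336 to 1.04 CPM in ANKO and 0.350 to 1.61 CPM in control. Ccl3 and Ccl4, made by activated macrophages and lymphocytes, had at most 20 reads in any library and were not tested.

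Among the receptors of monocytes and macrophages, Ccr2, the receptor of inflammatory monocytes, had 23.7, 21.8 and 25.0 CPM in ANKO and 19.3, 18.4 and 22.3 CPM in control. Control 3 exceeded ANKO 2. The difference was 0.23 on the log2 scale (SE 0.117, adjusted p = 0.469). Ccr1 had 3.99, 2.77 and 3.49 CPM in ANKO and 2.58, 2.92 and 1.96 CPM in control, and Cx3cr1 had 5.04, 3.90 and 6.32 CPM in ANKO and 6.57, 5.24 and 5.67 CPM in control; both overlapped.

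Of 15 macrophage markers 3 rose and none fell, and the list's median was 0.33 on the log2 scale. The 3 were Adgre1 (F4/80), Gpnmb and Trem2, with log2 fold changes of 1.00, 3.27 and 2.85. Leaving out 1 library ended the calls of Trem2 and Gpnmb in 5 of 6 cases each (highest adjusted p = 0.143 and 0.133, both without control 2) and that of Adgre1 without control 2 (adjusted p = 0.0544). The 15 summed to 2498 to 3712 CPM in ANKO and 3521 to 4711 CPM in control, most of it Lpl, which adipocytes also make. The other 14 summed to 996, 1051 and 1226 CPM in ANKO and 808, 860 and 726 CPM in control. No macrophage marker was at 0 in any library. The part of macrophage RNA in the Ccl9 values was not tested.

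Compared per kilobase of exon, with the exons of all transcripts merged, Ccl5 had the highest mean of the ligands. The order depends on these lengths, which were 960 bases for Ccl5 and 8176 bases for Cxcl12. In ANKO 1 Cxcl14 stood above Ccl5, at 40.6 against 39.6 CPM per kb. Ccl5 (RANTES), made by T cells and NK cells among others, had 38.0, 38.9 and 40.1 CPM in ANKO and 50.3, 37.8 and 59.3 CPM in control. The ANKO libraries sat close together and control 2 fell just under them, with a log2 fold change of -0.33 (SE 0.153, adjusted p = 0.421). On the per-kilobase scale Ccl5 averaged 40.6 in ANKO and 51.2 in control. Cxcl12, Cxcl14 and Ccl6 followed at means over all 6 mice of 28.5, 28.1 and 28.0 CPM per kb, which do not differ beyond their spread. Cxcl11 ranked 20th of the ligands on this scale, at 0.508 CPM per kb in ANKO and 2.73 CPM per kb in control.

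**Figure D3:**
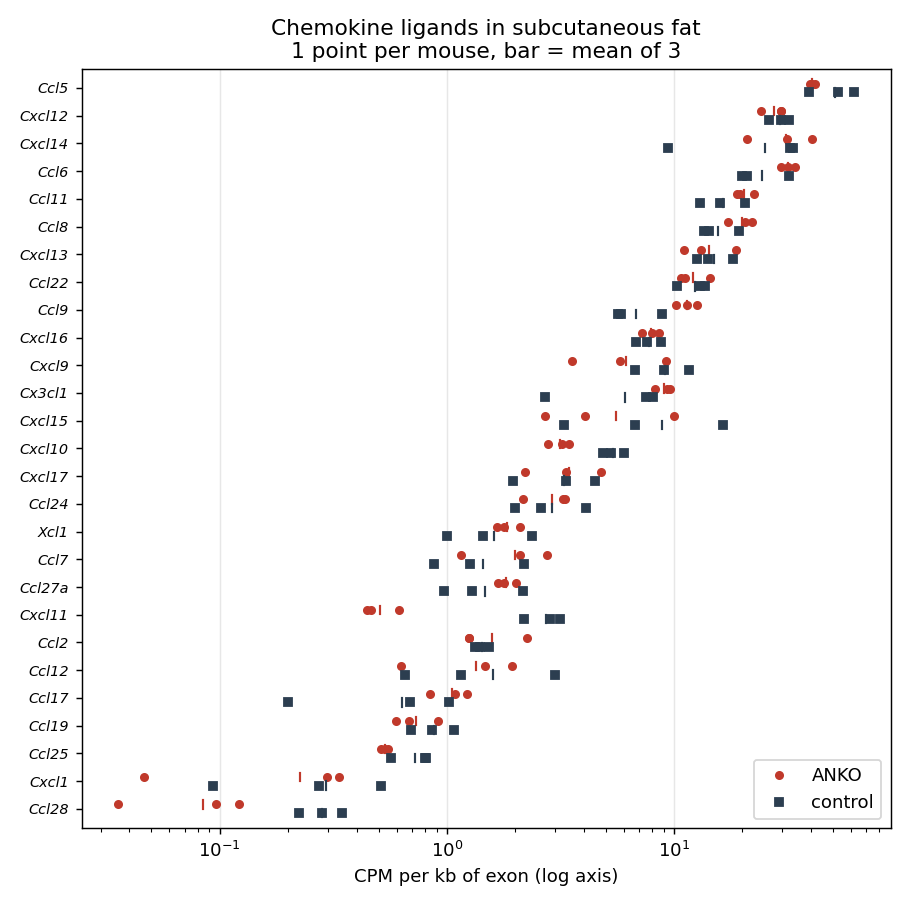
Level of each tested ligand gene in CPM per kb of exon, on a log axis, with 1 point per mouse and a bar at the mean of 3; circles are ANKO and squares control. Ccl5 has the highest mean, at 40.6 in ANKO and 51.2 in control, and the points of Cxcl11 separate by genotype, at 0.508 in ANKO and 2.73 in control.

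Cxcl12, the stromal ligand that retains leukocytes and progenitors through Cxcr4, had the most reads of any member. It had 240.5, 241.4 and 196.7 CPM in ANKO and 214.3, 242.3 and 261.8 CPM in control, so the groups overlapped (log2 fold change -0.08, SE 0.117, adjusted p = 0.847). Its receptors overlapped too. Cxcr4 had 39.7, 37.7 and 46.2 CPM in ANKO and 42.0, 38.8 and 35.2 CPM in control (log2 fold change 0.09, SE 0.110, adjusted p = 0.816). Ackr3, the atypical receptor that scavenges Cxcl12, had 38.9, 30.3 and 32.5 CPM in ANKO and 34.2, 32.3 and 25.7 CPM in control (log2 fold change 0.14, SE 0.141, adjusted p = 0.765), with overlap. Cxcl16, a membrane-bound ligand of Cxcr6, had 24.0, 21.8 and 25.9 CPM in ANKO and 26.6, 20.5 and 23.0 CPM in control (log2 fold change 0.03, SE 0.128, adjusted p = 0.956). Ccl11 (eotaxin), which attracts eosinophils through Ccr3, had 20.5, 24.3 and 21.1 CPM in ANKO and 17.2, 14.1 and 22.3 CPM in control. Control 3 lay inside the ANKO range of Ccl11, and its receptor Ccr3 had at most 22 reads in any library.

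Several ligands varied widely between mice of 1 genotype, and control 3 was their lowest control library. Cx3cl1 (fractalkine), a membrane-anchored ligand of Cx3cr1, had 37.8, 36.7 and 32.4 CPM in ANKO and 29.6, 31.7 and 10.6 CPM in control. The groups did not overlap, yet control 3 stood far under the other controls (log2 fold change 0.57, SE 0.401, adjusted p = 0.652). Without control 3 the log2 fold change of Cx3cl1 was 0.23 (adjusted p = 0.543). Cxcl14 had 74.2, 57.6 and 38.3 CPM in ANKO and 59.3, 61.1 and 17.2 CPM in control (log2 fold change 0.31, SE 0.547, adjusted p = 0.890). Without control 3 it was -0.08. Cxcl15, an epithelial chemokine of mice, had 21.2, 8.62 and 5.76 CPM in ANKO and 14.4, 35.1 and 6.96 CPM in control. Mammary and keratinocyte epithelium markers, none of 9 tested past the threshold, summed to 723, 626 and 451 CPM in ANKO and 596, 1121 and 147 CPM in control. Control 3 was the lowest library for that sum, and control 2 was the highest for both the sum and Cxcl15. The part of epithelial RNA in these values was not tested.

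Ccl28 (chromosome 13, 119623819 to 119654359), which attracts cells through Ccr10 and Ccr3, had 14, 4 and 10 reads in ANKO and 38, 27 and 21 reads in control. All ANKO libraries lay below all controls, at 0.588, 0.173 and 0.465 CPM in ANKO and 1.66, 1.36 and 1.08 CPM in control (log2 fold change -1.73, SE 0.489, adjusted p = 0.162). Ccl27a, a skin chemokine that shares Ccr10, had 4.24, 4.76 and 4.00 CPM in ANKO and 5.12, 3.07 and 2.32 CPM in control. Their receptor Ccr10 had 4.20, 3.81 and 3.86 CPM in ANKO and 5.96, 4.99 and 4.33 CPM in control (log2 fold change -0.36, SE 0.199, adjusted p = 0.514), and its groups did not overlap. Ccr10 lies wholly inside Cntnap1 on the opposite strand, which had 22.4, 25.3 and 21.1 CPM in ANKO and 34.7, 31.4 and 35.6 CPM in control (log2 fold change -0.56, adjusted p = 0.0496, and over 0.05 when any 1 library was left out). In all, 17 of the 48 tested genes are overlapped by a gene on the opposite strand and 10 lie wholly inside one. The overlap can be small, as for Ccl27a, where Il11ra1 covers 8 of 4781 bases. Because the strand setting is not given, it is not known whether reads of the other strand entered these counts.

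Among the chemokines and receptors of lymphoid tissue, Ccr7, which guides T cells and dendritic cells into lymph nodes, had 47.4, 34.7 and 41.9 CPM in ANKO and 58.3, 38.9 and 54.8 CPM in control. ANKO 1 and ANKO 3 exceeded control 2, so the groups overlapped (log2 fold change -0.29, SE 0.174, adjusted p = 0.560). Cxcr5, the follicular homing receptor of B cells, had 25.9, 23.1 and 38.7 CPM in ANKO and 36.0, 31.2 and 37.8 CPM in control (log2 fold change -0.26, SE 0.193, adjusted p = 0.660). ANKO 3 was the highest library for Cxcr5 and also for the B cell marker sum, at 1234 CPM, while ANKO 2 was the lowest for Cxcr5. Cxcl13, the ligand of Cxcr5, had 15.1, 12.8 and 21.5 CPM in ANKO and 20.8, 14.6 and 16.2 CPM in control, again highest in ANKO 3. Ccr6, a receptor of B cells and T helper cells, had 14.8, 10.05 and 13.7 CPM in ANKO and 16.3, 9.88 and 15.8 CPM in control, while the reads of its ligand Ccl20 were 0 in all libraries.

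Ccl22, a dendritic cell product that attracts regulatory T cells through Ccr4, had 33.4, 25.0 and 26.1 CPM in ANKO and 30.3, 24.0 and 31.8 CPM in control (log2 fold change -0.03, SE 0.152, adjusted p = 0.967). Ccr4 stood at 1.47 to 2.46 CPM in ANKO and 1.61 to 2.54 CPM in control, and Ccl17, the other Ccr4 ligand, had at most 15 reads in any library. Ccr9, a gut-homing receptor of lymphocytes, had 12.7, 9.49 and 10.1 CPM in ANKO and 13.8, 10.6 and 16.2 CPM in control. Its ligand Ccl25 had 4.12, 3.98 and 3.81 CPM in ANKO and 6.00, 4.23 and 5.98 CPM in control, without overlap but with control 2 close to ANKO 1. Xcr1, the receptor of cross-presenting dendritic cells, had 3.28, 2.69 and 3.39 CPM in ANKO and 3.81, 3.33 and 6.13 CPM in control. Ccl19 had 12 to 18 reads per library, and Ccl21a, Ccl21b and Ccl21c had at most 2 reads in any library. The Ccl19, Ccl21 and Ccl27 genes have near-identical copies on mouse chromosome 4, so their counts are uncertain. None of 9 tested lymph node stroma markers, a list that includes Ccl19 and Cxcl13, passed; 6 had a negative and 3 a positive log2 fold change. The list summed to 594, 536 and 545 CPM in ANKO and 690, 606 and 660 CPM in control, and its part in these values was not tested.

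**Figure D4:**
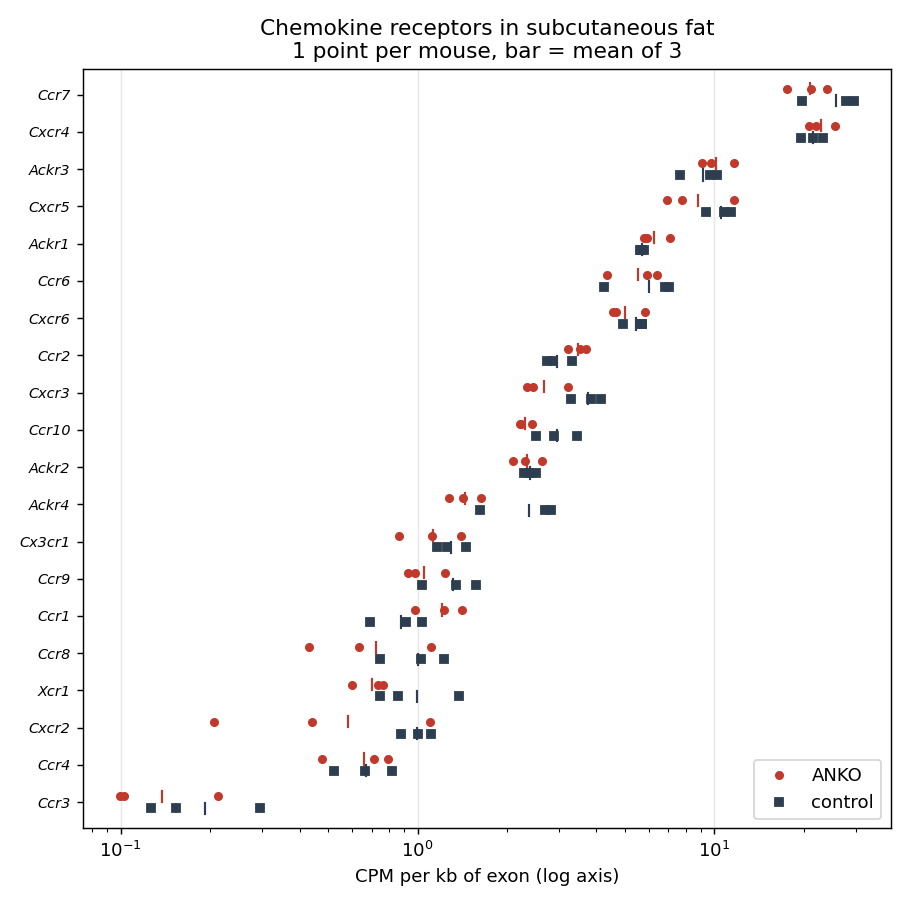
Level of 20 of the 21 tested receptor genes in CPM per kb of exon, on a log axis, with 1 point per mouse and a bar at the mean of 3; circles are ANKO and squares control. Ccr7 and Cxcr4 lead, at 23.3 and 22.1 CPM per kb over all mice, and the points of both genotypes overlap for both genes.

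Among the atypical receptors, Ackr4, which clears Ccl19, Ccl21 and Ccl25, had 8.82, 6.84 and 7.67 CPM in ANKO and 8.76, 14.4 and 15.1 CPM in control. Control 1 lay with the ANKO libraries. The difference was -0.71 on the log2 scale (SE 0.226, adjusted p = 0.212). Ackr4 lies wholly inside Acad11, an acyl-CoA dehydrogenase gene on the opposite strand, and Acad11 had 45.3, 49.1 and 40.9 CPM in ANKO and 48.6, 110.3 and 115.3 CPM in control. Controls 2 and 3 were the high libraries for both genes, and Ackr4 reads were 19.5%, 13.9% and 18.7% of Acad11 reads in ANKO and 18.0%, 13.1% and 13.1% in control. Ackr1, the endothelial receptor also known as Duffy antigen, had 9.92, 8.32 and 8.13 CPM in ANKO and 8.15, 7.96 and 7.88 CPM in control. Ackr2, a scavenger of inflammatory CC chemokines, had 8.19, 6.54 and 7.20 CPM in ANKO and 7.40, 7.86 and 7.11 CPM in control. Both sets of values overlapped. Of the tested genes 3 are overlapped by a gene on the same strand, Ackr1 among them. Exons of Cadm3 cover 361 of the 1405 exon bases of Ackr1, so its count and its level per kilobase are uncertain.

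Of the neutrophil-attracting ligands other than Cxcl15, Cxcl1 had 2 to 19 reads per library, Cxcl2 at most 8 and Cxcl5 at most 2, and Cxcl3 had none. A count of 0 in 1 library allows up to 3 reads, or 0.126 to 0.152 CPM, for counting error only. Their receptor Cxcr2 had 0.630, 1.34 and 3.35 CPM in ANKO and 3.07, 3.38 and 2.68 CPM in control, with ANKO 3 among the controls, and Cxcr1 had at most 4 reads. Of 12 monocyte and neutrophil markers 6 were tested and none passed. Ly6g, a defining neutrophil marker, was at 0 in all control libraries and in ANKO 1. It had 0.0866 CPM in ANKO 2 and 0.0465 CPM in ANKO 3, below the 0.126 to 0.152 CPM that a count of 0 allows. The other untested markers went both ways: mean CPM was lower in ANKO for S100a8, S100a9 and Mpo and higher for Chil3 and Retnlg. In all, 16 ligand features and 1 receptor were not tested, of which 7 ligand features had no read in any library. Since the count filter also passes a gene through the group in which it is high, the tested genes are not all members.

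Outside the symbol rule, 12 of 16 other chemoattractant and receptor genes were tested, and 1 fell: Cmklr1, a receptor of the adipokine chemerin. At an unadjusted p under 0.05 in edgeR, 4 of the 12 were higher and 2 lower, against 6.03% and 6.9% of all genes. Cmklr1 had 52.3, 57.1 and 54.9 CPM in ANKO, against 137.2, 159.0 and 119.6 CPM in control (log2 fold change -1.34, SE 0.113, edgeR adjusted p = 0.00311). The gene of chemerin itself, Rarres2, had 21.1, 21.7 and 20.2 CPM in ANKO and 21.9, 21.5 and 27.1 CPM in control. Pf4, the platelet and macrophage chemokine that is a CXC family member by another name, had 12.1, 9.83 and 11.6 CPM in ANKO and 7.01, 7.31 and 7.01 CPM in control (log2 fold change 0.65, SE 0.145, adjusted p = 0.0825). Mif, a cytokine that binds Cxcr4 and Cxcr2, averaged 54.0 ± 4.77 CPM in ANKO and 36.0 ± 4.16 CPM in control, with an edgeR adjusted p of 0.0503. Of 15 alternative fits, Mif passed the threshold in 4 and Pf4 in 1. Of 30 tested genes for chemokine receptor signalling and for the control of chemokine transcription, none passed in edgeR, 2 had an unadjusted p under 0.05 (both lower, Irf1 among them), and the median log2 fold change was 0.0038. Among the remaining marker lists, 4 of 6 tested mast cell and eosinophil markers rose, against 0.488% of all genes. The 4 were Cpa3, Cma1, Tpsb2 and Mcpt4, all mast cell protease genes. Kit did not pass (edgeR adjusted p = 0.743), nor did Ccr3 (log2 fold change -0.48, edgeR adjusted p = 0.800). The eosinophil genes Epx, Prg2 and Siglecf were not tested. None of 11 dendritic cell, 11 endothelial or 11 fibroblast and preadipocyte markers passed.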

How the data were processed

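The authors deposited raw read counts per gene symbol, 1 column per mouse. STAR 2.0.4b, featureCounts 1.45, Subread and the build GRCm38 are named, per the submitters' processing notes, and a ribosomal RNA depletion kit is named per the labels' protocols. The sources used here give neither the annotation release nor the strand setting. After removal of 329 exact repeat lines, 40428 features were left, and 19272 passed filterByExpr (minimum count 10, minimum total 15). ANKO and control (3 mice each) were compared with edgeR 4.0.16 (R 4.3.3) by TMM scaling and a robust quasi-likelihood F test. P-values were adjusted by Benjamini-Hochberg over all genes, with a threshold of 0.05. Each SE is the log2 fold change over the square root of F, and CPM were computed from the counts. The steps were tested on simulated data. Positions, exon lengths and overlaps came from GENCODE M21 and upstream sequences from RefSeq. Exons of all transcripts of a gene were merged for CPM per kb.

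The members and gene lists were chosen with earlier results of these data known. Genes were named by a rule that took the members past the threshold, those with an unadjusted p under 0.05 and the 8 ligands and 5 receptors of highest mean CPM; other members are given by level, and some items are not reported here. Genes that overlap a member, Ccr10, Pf4, Mif, Irf1 and Irf7 were chosen after their values were seen. Alternatives were DESeq2 1.42.0, limma-voom (limma 3.58.1), upper-quartile or RLE scaling, robust=FALSE, other filters, a replicate block, a muscle covariate and leaving out each library. Nothing in the sources used here says how the mice were related or batched. No pair of libraries agreed within sampling noise (chi-square per degree of freedom 33.7 to 97.1).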

Additional observations from a re-analysis of the deposited data

How the results depend on the processing

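Cxcl11, Nampt and Cmklr1 passed the threshold under each of the 15 alternatives, with Cxcl11 at -2.58 to -2.29 on the log2 scale and a highest adjusted p of 0.0296. The 1 lower ligand became 2 with DESeq2 and 2 without a low-count filter (Cxcl10 added, at -0.76 and -0.77). In place of no higher ligand there was 1 (Ccl9) with DESeq2 and without control 2, so the range over left-out libraries was 0 to 1. In place of no higher receptor there was 1 with DESeq2. Over all genes, 94 were higher and 212 lower. The higher genes numbered 388 with DESeq2, 167 without a filter, 62 with the replicate block, 51 with the muscle covariate and 20 to 107 over left-out libraries. The lower genes numbered 498 with DESeq2, 112 with the muscle covariate and 55 to 221 over left-out libraries. Leaving out any library but ANKO 1 gave 20 to 41 higher genes, and leaving out any but control 1 gave 55 to 113 lower genes. The cause of these moves was not tested.

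Same-numbered mice did not deviate together (correlations of -0.04 to 0.07), so the numbers were not taken to pair them; the replicate block left Cxcl11 the 1 member called and lower genes at 145. Of 465 values over 31 named genes, 9 turned sign, all for genes far from the threshold. Ccl22 stood at 0.042 with the muscle covariate and at -0.15 to 0.062 over left-out libraries. Over left-out libraries Cxcl12 ranged over -0.16 to 0.011, Cxcl14 over -0.076 to 0.56 and Cxcl16 over -0.053 to 0.14. With 3 mice per group the median SE over all genes was 0.186 on the log2 scale.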
